A study of Homo sapiens with 50 samples.

Results

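The 7 genes described here encode the enzymes that add and remove the phosphate on the initiation factor eIF2alpha, and eIF2alpha itself. They are the kinases EIF2AK1, EIF2AK2, EIF2AK3 and EIF2AK4, the phosphatase subunits PPP1R15A and PPP1R15B, and the substrate EIF2S1. They were chosen by name. Together they are 7 of the 18239 genes measured, and all 7 were measured. Of their 25 probe sets (short groups of array probes for one transcript), each gene is represented by the brightest on average over the 50 arrays.

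The data are 50 Affymetrix HG-U219 arrays of total RNA from A549 cells, a human lung adenocarcinoma line. One group was taken in full RPMI medium, before the medium was changed. The other cells were moved to BME medium with non-essential amino acids, either with serine or without it. After 24 h there, 1 µM compound 16 or its solvent DMSO was added, and cells were taken at 0, 1.5, 6 and 24 h. The study's title places the compound among activators of the pyruvate kinase PKM and concerns a need for serine. This gives 17 groups of 3 arrays each, except that medium with serine and DMSO at 1.5 h has 2. At 0 h the compound had just been added. The 0 h groups had spent 24 h in their medium, so the change of medium is compared across that day.

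Of the 9 measured A549 epithelial markers, 9 lay above the 90th percentile of signal. The alveolar (5 of 5), leukocyte (4 of 4), fibroblast (5 of 5) and endothelial (4 of 4) markers measured all lay below the 50th. Array medians ran from 5.40 to 5.54 on the log2 scale. The difference between 3′ and 5′ ACTB probes, a sign of RNA quality, ran from 1.01 (serine, compound 16, 6 h) to 1.37 (before the change of medium) by group.

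Phosphorylation of eIF2alpha slows the start of translation for most messages and favours a few, ATF4 among them, whose targets restore amino acid supply. Each kinase answers a different stress: EIF2AK1 (HRI) heme shortage and mitochondrial stress, EIF2AK2 (PKR) double-stranded RNA, EIF2AK3 (PERK) unfolded protein in the endoplasmic reticulum, and EIF2AK4 (GCN2) uncharged transfer RNA. PPP1R15A (GADD34) and PPP1R15B (CReP) bring protein phosphatase 1 to eIF2alpha. PPP1R15A is known as the inducible subunit and PPP1R15B as the constitutive one. The arrays measure messenger RNA, so they hold nothing on the phosphorylation or activity of these proteins.

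The promoters of the phosphatase subunits are shown because these genes moved most under the compound. RefSeq windows (GRCh38.p14) were at hand for 6 of the 7 genes, and both strands of the 250 bases before each start were searched. Capitals mark motif matches, and each sequence is written 5′ to 3′ on the gene's strand. PPP1R15A lies at chr19:48872171-48872420 on the plus strand, and PPP1R15B at chr1:204411818-204412067 on the minus strand.
PPP1R15A: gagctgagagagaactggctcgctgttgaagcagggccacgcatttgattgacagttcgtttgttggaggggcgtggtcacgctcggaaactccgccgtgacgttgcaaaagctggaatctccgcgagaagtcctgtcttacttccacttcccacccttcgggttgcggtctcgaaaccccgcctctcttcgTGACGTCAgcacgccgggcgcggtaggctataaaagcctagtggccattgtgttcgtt
PPP1R15B: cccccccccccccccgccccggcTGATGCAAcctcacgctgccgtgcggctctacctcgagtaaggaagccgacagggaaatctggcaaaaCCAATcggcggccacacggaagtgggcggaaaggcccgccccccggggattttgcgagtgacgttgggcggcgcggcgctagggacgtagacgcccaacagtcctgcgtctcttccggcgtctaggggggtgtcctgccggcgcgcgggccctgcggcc

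PPP1R15B held 1 ATF4 element (TGATGNAA), 227 to 220 bases before the start, at chr1:204412037-204412044. That element was in 3.14% of 35116 windows, and in 1 of the 6 members' windows. PPP1R15B also held 1 CCAAT box (CCAAT), as did EIF2AK2 (2 boxes) and EIF2AK3 (4 boxes). The box was in 32.0% of windows and in 3 of the 6. PPP1R15A held 1 cyclic AMP response element (TGACGTCA), 58 to 51 bases before the start, at chr19:48872363-48872370. That element was in 1.65% of windows. The CArG box, known from serum response genes, was in 1.16% of windows and in 0 of the 6. These last motifs were added after the sequences had been seen. An interferon element, written GAAA, any 2 bases, GAAA, was in 3.02% of windows and in 0 of the 6. When the search was widened to the 50 bases after the start, a choice made because a match across the start of EIF2AK2 had been seen, the share was 3.57% of windows and 1 of the 6. That match (GAAAACGAAA) covers the last 6 bases before the start and the first 4 after it, at chr2:37156977-37156986. The windows of EIF2AK4 and EIF2S1 held none of the motifs searched.

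Across the 17 groups the kinases varied least by the probe sets used. The log2 signal of EIF2AK1 averaged 11.81 over all arrays and its group means spanned 0.22, a range that 97.4% of genes exceeded. EIF2AK2 averaged 9.45 and spanned 0.25, which 95.6% of genes exceeded. EIF2AK3 averaged 8.99 and spanned 0.42 (63.0% of genes wider), and EIF2AK4 averaged 8.40 and spanned 0.39 (70.4% wider). The median span over all genes was 0.48. Other probe sets of the kinases spanned up to 0.98 (EIF2AK1), 0.75 (EIF2AK2), 0.58 (EIF2AK3) and 0.62 (EIF2AK4). Those of PPP1R15B spanned up to 0.63 and those of EIF2S1 up to 0.67, so the order holds only for the probe sets used. Signals of different genes are not on one scale, since probes bind with different strength, so only spans and differences are set side by side.

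By the probe sets used, the phosphatase subunits and the substrate spanned more. PPP1R15A averaged 7.11 and spanned 2.23, a 4.69-fold range, which 0.422% of genes exceeded. It has only 1 probe set, so its results could not be set beside another. PPP1R15B averaged 10.06 and spanned 0.61 (30.1% of genes wider). EIF2S1 averaged 10.75 and spanned 0.80 (14.3% wider). Arrays of one group differed by a pooled SD of 0.17 for PPP1R15A, 0.09 for PPP1R15B and 0.07 for EIF2S1, and by 0.07 to 0.13 for the kinases.

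**Figure D1:**
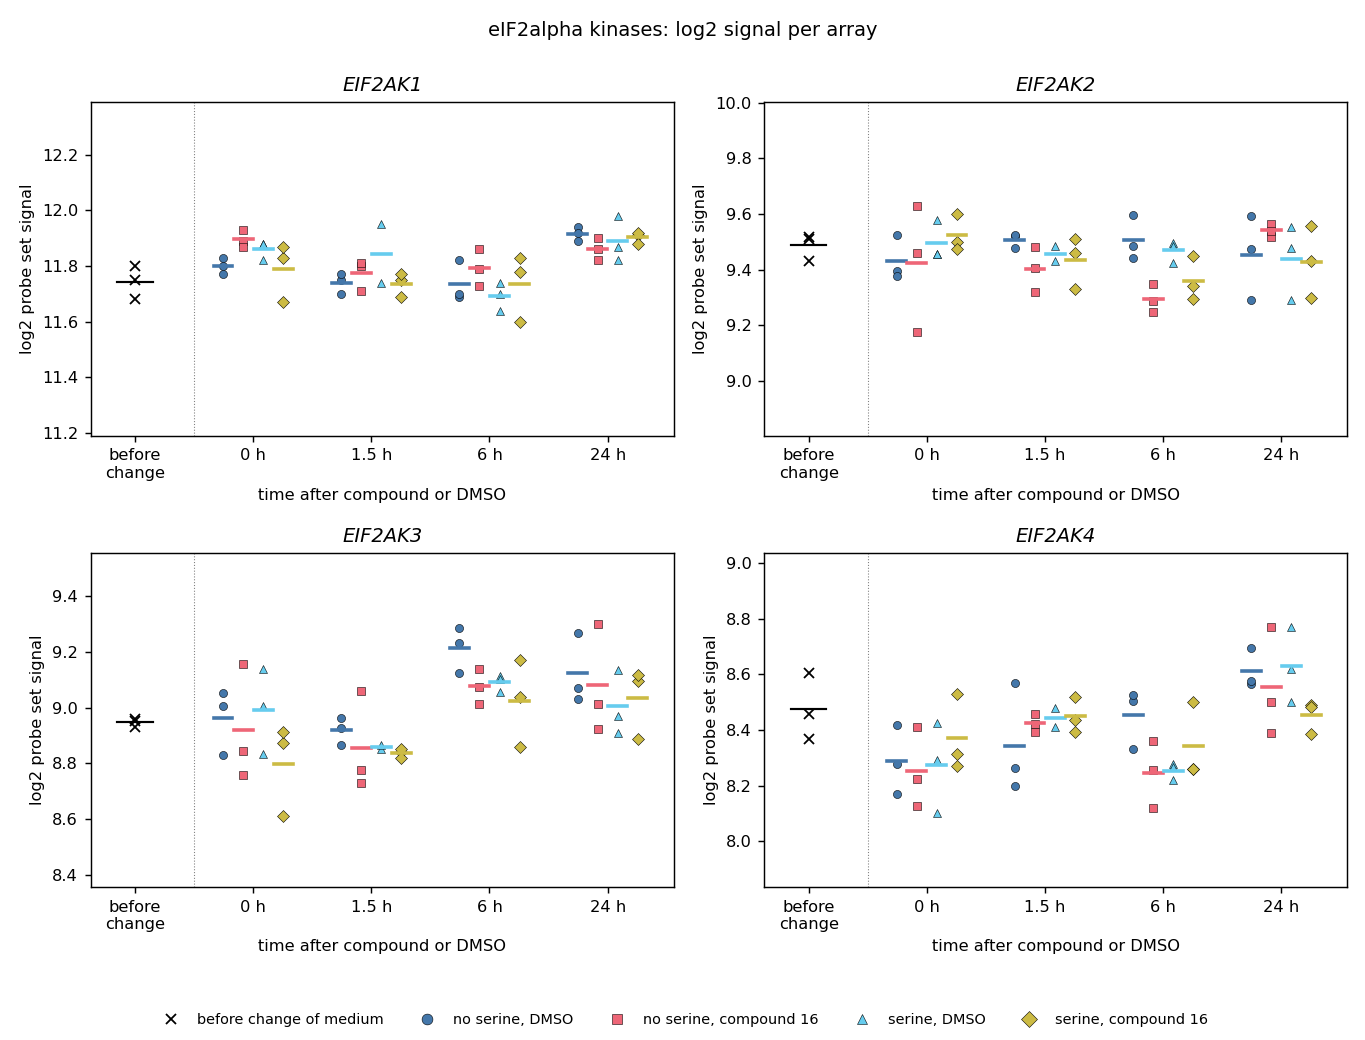
Log2 signal of the 4 kinases on each array (points) with group means (bars), by time after compound or DMSO, the cells of the original medium at the left; each panel covers 1.2 log2 units. The groups overlap over most of each panel, and the 24 h groups of EIF2AK1 have higher means than its 6 h groups.

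No kinase passed the test under compound 16. Differences here are log2 values of compound minus DMSO from a limma fit over all arrays, and called means an adjusted p under 0.05 (Benjamini-Hochberg, over all genes). Of the 32 kinase comparisons (4 genes, 2 media, 4 times) 0 were called, and 2 had an unadjusted p under 0.05. Calls were few among all genes too. Without serine 0, 0.0822, 2.72 and 7.06% of genes were called at 0, 1.5, 6 and 24 h. With serine the shares were 0, 0, 0 and 1.37%. The differences lay between -0.21 and 0.10, and their 95% intervals between -0.41 and 0.30.

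EIF2AK2 stood lowest in medium without serine and compound 16 at 6 h. Its 3 arrays there read 9.35, 9.25 and 9.29, and the 3 DMSO arrays 9.48, 9.60 and 9.44. The arrays of the groups did not overlap, but the difference of -0.21 ± 0.08 (SE) had an adjusted p of 0.202. The 3 EIF2AK4 arrays of the same groups read 8.26, 8.12 and 8.36 with the compound and 8.51, 8.52 and 8.33 with DMSO. They overlapped, and the difference of -0.21 ± 0.10 had an adjusted p of 0.372.

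Lack of serine gave no kinase call either. In DMSO the 16 kinase differences, without minus with serine, ran from -0.11 to 0.20. Under compound 16 they ran from -0.12 to 0.12. The smallest adjusted p was 0.384 in DMSO and 0.380 under the compound. Of all genes, 5.91, 1.97, 3.18 and 0.159% were called in DMSO at 0, 1.5, 6 and 24 h. Under the compound the shares were 4.12, 3.33, 11.8 and 4.39%.

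The kinase calls came in comparisons of 24 h with 6 h, where more of all genes were called too. With serine 15.5% of all genes were called there in DMSO and 20.1% under the compound. Without serine the shares were 11.8% and 10.6%. EIF2AK1 was higher at 24 h than at 6 h by 0.20 ± 0.06 with serine in DMSO (adjusted p = 0.0190), by 0.17 with serine under the compound (0.0427) and by 0.18 without serine in DMSO (0.0420). With serine in DMSO its arrays read 11.70, 11.74 and 11.64 at 6 h and 11.82, 11.98 and 11.87 at 24 h, with no overlap. EIF2AK4 rose by 0.38 ± 0.10 with serine in DMSO (adjusted p = 0.00726). Its arrays read 8.28, 8.27 and 8.22 at 6 h and 8.77, 8.50 and 8.62 at 24 h. Without serine under the compound, EIF2AK4 rose by 0.31 ± 0.10 (0.0436) and EIF2AK2 by 0.25 ± 0.08 (0.0479). EIF2AK3 had 0 calls in 33 comparisons by the probe set used. Its nearest was 0.25 ± 0.10 from 0 to 6 h in DMSO without serine, with an adjusted p of 0.0738. It was called there after quantile normalization (0.32), after median centring (0.38) and with dim genes left out (0.25). Its dimmer probe sets went from 7.12 to 7.42 and from 7.29 to 7.17 there. With the mean of all its probe sets, EIF2AK3 was called lower from 6 to 24 h in DMSO without serine (-0.23). The probe set used went from 9.22 to 9.12 over that time, and the dimmer ones from 7.42 to 6.90 and from 7.17 to 7.08.

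Several kinase calls depended on the probe set or on single arrays. The 3 EIF2AK1 calls were lost when its 8 probe sets were averaged. That average was instead called higher without serine under the compound (0.18), where the probe set used was not called. The 7 probe sets not used gave -0.17 to 0.475 with serine in DMSO (6 higher, 1 of these called). They gave -0.12 to 0.57 with serine under the compound (4 higher, 2 called) and -0.11 to 0.45 without serine in DMSO (6 higher, 1 called). Of the 6 single arrays that could be left out, 2, 4 and 5 ended the calls of EIF2AK1 in the order with serine in DMSO, with serine under the compound and without serine. All 6 ended that of EIF2AK2, and 4 of 6 that of EIF2AK4 under the compound, where the difference then ran from 0.20 to 0.39. Leaving out the 24 h array at 8.77 ended the call of EIF2AK4 in DMSO. The other EIF2AK2 probe set also rose from 6 to 24 h without serine under the compound, by 0.45, and was called. The other EIF2AK4 probe set, dim at a mean of 4.28, rose by 0.37 under the compound and 0.32 in DMSO, and was not called.

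**Figure D2:**
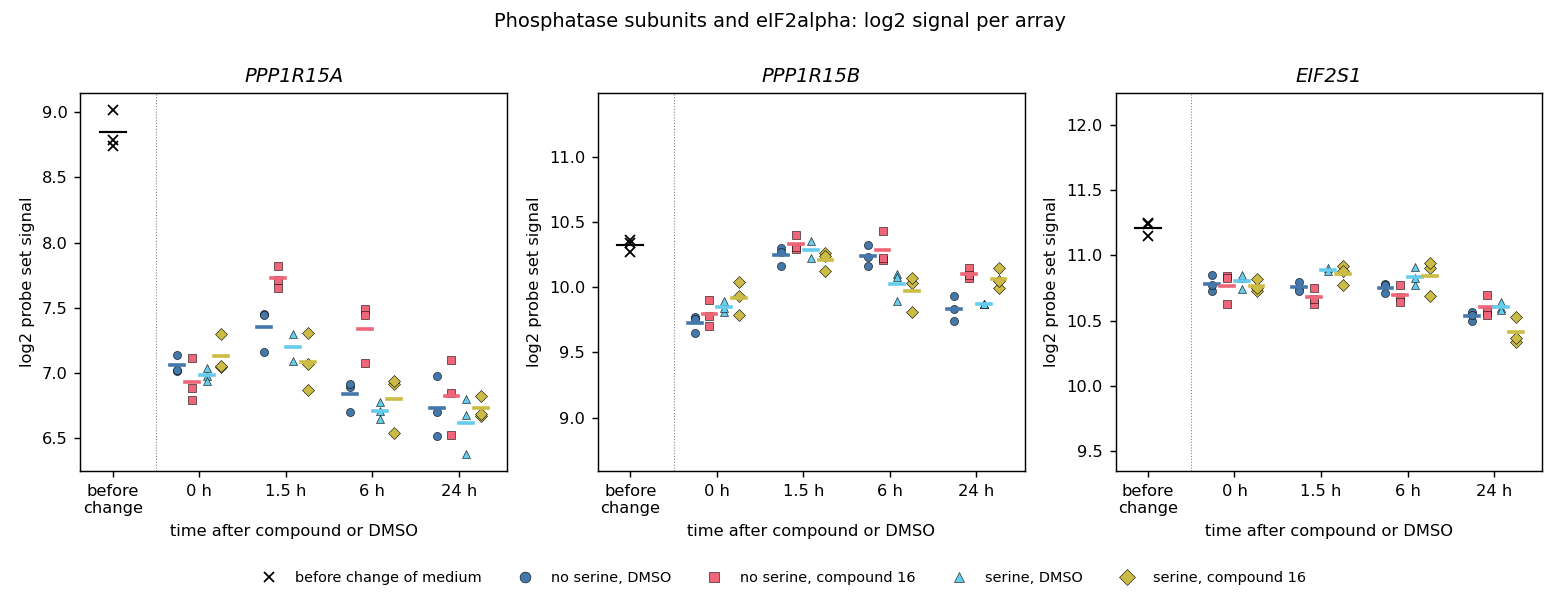
Log2 signal of PPP1R15A, PPP1R15B and EIF2S1 on each array (points) with group means (bars), by time after compound or DMSO; each panel covers 2.9 log2 units. PPP1R15A is highest before the change of medium (8.74 to 9.02), and after it highest without serine under compound 16 at 1.5 h (7.65 to 7.82).

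PPP1R15A, the inducible subunit, rose under compound 16 in medium without serine at 6 h. The 3 compound arrays read 7.08, 7.49 and 7.45, and the 3 DMSO arrays 6.89, 6.92 and 6.70. The lowest compound array lay above the highest DMSO array. The difference was 0.50 ± 0.14, a 1.42-fold level, with an adjusted p of 0.0326. It was the member called of 7 there, where 2.72% of all genes were called. Arrays are numbered here as in their titles. Leaving out compound array 64 or 65, or DMSO array 66, 67 or 68, ended this call, with differences over all 6 omissions from 0.43 to 0.63 and adjusted p from 0.0118 to 0.190. A fit to these 6 arrays alone gave an adjusted p of 0.180.

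At 1.5 h without serine the PPP1R15A arrays also stood apart. They read 7.65, 7.71 and 7.82 with the compound, and 7.45, 7.45 and 7.17 with DMSO. The groups did not overlap, yet the difference of 0.37 ± 0.14 had an unadjusted p of 0.00926 and an adjusted p of 1.00. Of all genes 0.0822% were called in that comparison, and 0 of the 7 members. At 24 h the arrays overlapped and the difference was 0.09, with an interval from -0.19 to 0.37.

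With serine, PPP1R15A was not called at any time. Its differences were 0.15, -0.11, 0.09 and 0.11 at 0, 1.5, 6 and 24 h. The compound effect without serine minus that with serine was 0.49 ± 0.20 at 1.5 h (unadjusted p = 0.0220, adjusted p = 0.998) and 0.41 ± 0.19 at 6 h (0.0381 and 0.494). So a difference between media in the response of PPP1R15A did not pass the test.

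PPP1R15B, the constitutive subunit, rose under compound 16 without serine at 24 h. The compound arrays read 10.15, 10.07 and 10.09, and the DMSO arrays 9.83, 9.93 and 9.74, with no overlap. The difference was 0.27 ± 0.07, a 1.21-fold level, with an adjusted p of 0.0173. It was the member called of 7, where 7.06% of all genes were called. Its other 3 probe sets differed by 0.19 to 0.20 and were not called. The call was lost without the compound array at 10.15, or the DMSO array at 9.83 or at 9.74 (0.22 to 0.32 over the 6 omissions), and in a fit to these arrays alone (adjusted p = 0.151).

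With serine at 24 h the PPP1R15B arrays read 10.00, 10.05 and 10.15 with the compound and 9.87, 9.87 and 9.87 with DMSO. They did not overlap, and the difference of 0.20 ± 0.07 had an adjusted p of 0.245. There 1.37% of all genes and 0 members were called. The difference of this effect between media was not called.

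EIF2S1, the substrate, was not called under the compound. Its largest difference was -0.19 ± 0.06 with serine at 24 h, with an adjusted p of 0.154. The compound arrays read 10.34, 10.37 and 10.53, and the DMSO arrays 10.60, 10.64 and 10.58. The effect without serine minus that with serine was 0.26 ± 0.09 at 24 h (unadjusted p = 0.00685, adjusted p = 0.196).

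In the other compound comparisons no member was called. At 0 h in either medium, and with serine at 1.5 and 6 h, 0 of all genes were called by limma, or 0%. At an unadjusted p under 0.05, 1318 genes passed at 0 h without serine, and 1029, 614 and 1105 with serine at 0, 1.5 and 6 h. For the difference between media, 0, 0.0164, 0.899 and 1.28% of genes were called at 0, 1.5, 6 and 24 h, and 0 members at each. At 0 h that 0 stood beside 1070 genes at an unadjusted p under 0.05.

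**Figure D3:**
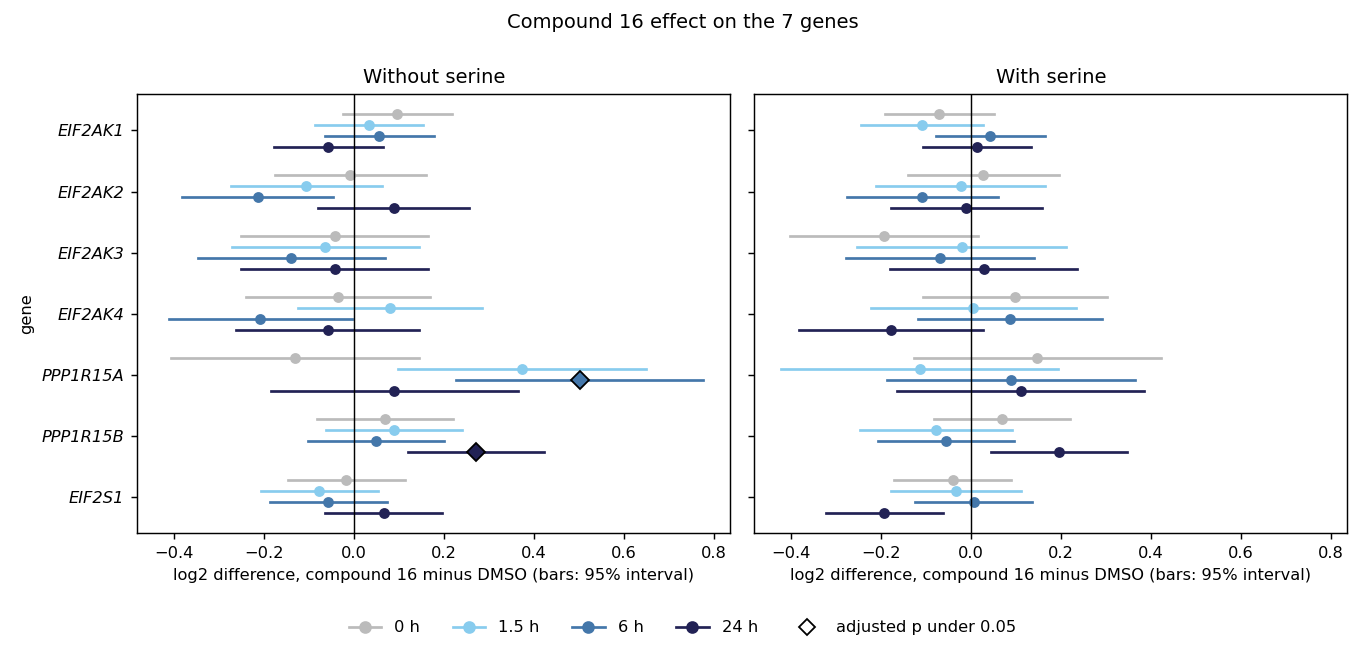
Log2 difference, compound 16 minus DMSO, of each of the 7 genes at 4 times, without serine (left) and with serine (right); points are limma estimates, lines 95% intervals and outlined diamonds called results. The called results are PPP1R15A at 6 h (0.50) and PPP1R15B at 24 h (0.27), both without serine.

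Under the compound, PPP1R15A was higher without serine than with it at 1.5 and 6 h. At 1.5 h its arrays read 7.65, 7.71 and 7.82 without serine and 7.07, 6.87 and 7.31 with serine. The groups did not overlap. The difference of 0.64 ± 0.14 (1.56-fold) had an adjusted p of 0.00293, and it was the member called where 3.33% of genes were called. At 6 h the arrays read 7.08, 7.49 and 7.45 against 6.92, 6.94 and 6.54. The difference was 0.54 ± 0.14 (adjusted p = 0.00534), lost without array 59 of the serine group (0.41, adjusted p = 0.0687). PPP1R15B joined it at 6 h. Its arrays read 10.43, 10.21 and 10.22 without serine and 9.81, 10.03 and 10.07 with it, a difference of 0.32 ± 0.07 (adjusted p = 0.00263). So 2 of 7 members were called at 6 h, against 11.8% of all genes. Fits to the arrays of each comparison alone gave adjusted p of 0.0727, 0.0856 and 0.136 for these 3 results. With the mean of its 4 probe sets, the PPP1R15B difference was 0.18 (adjusted p = 0.0719).

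At 0 and 24 h no member was called between media under the compound, against 4.12 and 4.39% of genes. EIF2S1 was lower without serine at 1.5 h by value (-0.17, adjusted p = 0.154) and higher at 24 h (0.19, adjusted p = 0.0894). In DMSO no member was called at any time, against 5.91, 1.97, 3.18 and 0.159% of genes at 0, 1.5, 6 and 24 h. The nearest was PPP1R15B at 6 h, where the arrays did not overlap: 0.21 ± 0.07, adjusted p = 0.132.

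The change of medium gave PPP1R15A and PPP1R15B their largest differences of the 33 comparisons. PPP1R15A read 8.74, 8.79 and 9.02 before the change. It read 6.98, 7.04 and 6.94 a day later with serine, and 7.01, 7.14 and 7.02 without it. The later groups did not overlap the earlier one. PPP1R15A fell by 1.86 ± 0.14 with serine (3.63-fold, adjusted p = 1.4e-13) and fell by 1.79 without it (3.45-fold, adjusted p = 2.7e-13).

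PPP1R15B fell by 0.47 and 0.60 ± 0.07 with and without serine (adjusted p = 6.2e-06 and 4.2e-08). It read 10.27, 10.36 and 10.34 before and 9.81, 9.84 and 9.90 after, with serine. EIF2S1 fell by 0.41 and 0.43 ± 0.06 (adjusted p = 6.2e-06 and 1.4e-06). It read 11.24, 11.15 and 11.25 before and 10.74, 10.83 and 10.85 after, with serine. So 3 of 7 members fell in each medium. Of all 18239 genes, 1725 were called lower with serine and 2298 without it. In either direction 21.7% of genes were called with serine and 28.6% without. The kinases were not called by the probe sets used, with values as deposited. EIF2AK4 was called with serine after median centring (-0.28). With the mean of all probe sets, EIF2AK2 was called with serine (-0.24) and without it (-0.29), and EIF2AK1 without serine (0.15). The other 3 PPP1R15B probe sets, dimmer at means of 4.93 to 7.94, gave -0.29 to -0.20 with serine and -0.44 to -0.20 without it, 1 called in each medium. The other 4 EIF2S1 probe sets gave -0.47 to -0.07 with serine and -0.31 to -0.12 without it, 2 called in each. The cells before the change also differ in time of harvest, and their ACTB 3′ to 5′ difference was the highest of the groups; the part of either in these results was not tested.

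A second EIF2AK2 probe set did not match the one used. It fell by 0.49 with serine and 0.52 without it, and was called, where the one used gave 0.01 and -0.06. Of the other 7 EIF2AK1 probe sets, 4 were called higher without serine, by 0.18 to 0.55, where the one used gave 0.12. With serine 0 of the 7 were called.

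PPP1R15B rose again within 1.5 h of the addition of DMSO, in a comparison added after the levels were seen. Without serine its arrays read 9.77, 9.65 and 9.76 at 0 h and 10.16, 10.30 and 10.27 at 1.5 h, a rise of 0.52 ± 0.07 (adjusted p = 9.5e-06). With serine the rise was 0.43 ± 0.08 over 3 and 2 arrays (adjusted p = 9.6e-04), lost without array 49 of 1.5 h (0.37, adjusted p = 0.0699). It was the member called in each medium, against 14.2% of genes without serine and 5.61% with it. The other 3 PPP1R15B probe sets gave 0.09 to 0.43 without serine (1 called) and 0.17 with it (0 called).

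From 0 to 6 h in DMSO, PPP1R15B was higher by 0.51 ± 0.07 without serine (adjusted p = 3.6e-06), the member called where 22.4% of genes were. Its other 3 probe sets gave 0.17 to 0.31, and 0 were called. With serine it was 0.17 (adjusted p = 0.121), and 0 members were called where 14.3% of genes were. After median centring the value with serine was 0.33 and was called. The difference between media of this change was 0.34 ± 0.11 (adjusted p = 0.171; 0.477% of genes and 0 members called). From 6 to 24 h without serine PPP1R15B fell by 0.40 ± 0.07 in DMSO (adjusted p = 1.9e-04). Its arrays read 10.23, 10.32 and 10.16 at 6 h and 9.83, 9.93 and 9.74 at 24 h. The other 3 probe sets gave -0.27 to -0.10, and 0 were called.

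PPP1R15A fell from 6 to 24 h without serine under the compound by 0.52 ± 0.14 (adjusted p = 0.00934). Its arrays overlapped, reading 7.08, 7.49 and 7.45 at 6 h and 6.84, 7.10 and 6.53 at 24 h. The call was lost without array 64 or 65 of 6 h, or array 101 of 24 h.

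EIF2S1 was called lower at 24 h than at 6 h in 3 of the 4 conditions. Without serine under the compound its mean went from 10.70 to 10.60 and was not called. The fall was largest with serine under the compound, from arrays of 10.90, 10.69 and 10.94 to 10.34, 10.37 and 10.53, a fall of 0.43 ± 0.06 (adjusted p = 2.7e-06). All 4 of its other probe sets also fell there and were called. In DMSO it fell by 0.23 with serine (adjusted p = 0.0102) and by 0.22 without (0.0211). Both DMSO calls were lost when each array was centred on its own median (0.171 and 0.159 in size). The other 4 probe sets of EIF2S1 gave -0.67 to -0.25 with serine in DMSO (3 called) and -0.41 to -0.20 without it (2 called). From 0 to 6 h in DMSO the probe set used gave 0.03 with serine and -0.03 without it, while its other 4 gave 0.30 to 0.34 with serine (3 called) and 0.01 to 0.31 without it (2 called).

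From 6 to 24 h the members called were 3 of 7 with serine in DMSO, against 15.5% of genes, and 2 with serine under the compound, against 20.1%. Without serine they were 3 in DMSO, against 11.8%, and 3 under the compound, against 10.6%. The change of EIF2S1 under the compound differed between media by 0.34 ± 0.09 (adjusted p = 0.0224), the member called where 4.92% of genes were. Its other 4 probe sets gave 0.10 to 0.18 and were not called, and 7 of 12 single omissions ended the call (0.29 to 0.41). In DMSO 0.625% of genes and 0 members were called for that difference. Array numbers run in blocks by time, so a shift between blocks cannot be told apart from time.

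Over the 17 group means, the genes most like PPP1R15A were EGR1 (Pearson r = 0.96), DUSP1 (0.95) and IER2 (0.95), all early genes of stimulated cells. With the cells of the original medium left out, the values over 16 groups were 0.86, 0.87 and 0.81. EGR1, a transcription factor, fell by 5.90 at the change of medium with serine; DUSP1, a phosphatase of MAP kinases, fell by 1.73 and IER2, a growth factor response gene, fell by 1.93. Under the compound at 1.5 h, EGR1 was higher without than with serine by 1.19, DUSP1 by 0.73 and IER2 by 0.53, each called. At 6 h these differences were 0.61, 0.20 and 0.19, and none was called. These groups share arrays with those of PPP1R15A, so the values are a description.

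TRIB3 is an ATF4 target that represses ATF4 signalling. Its r with PPP1R15A over 17 group means was 0.06, and 0.46 over 16 without the cells before the change. For DDIT3, the stress transcription factor CHOP, it was 0.13 and 0.48, and for ATF4 0.02 and 0.38. PPP1R15B was most like TFB2M (0.90), MRPS18B (0.88) and RNF6 (0.88). EIF2S1 was most like ADM (0.96), KRT80 (0.96) and PSME3 (0.95). EIF2AK1 was most like HAUS4, DST and CDIPT (each 0.87), EIF2AK2 like CHCHD6 (0.74), GPR161 (0.74) and SNTB2 (0.70), EIF2AK3 like BRCC3 (0.87), DGKI (0.85) and LINC00663 (0.85), and EIF2AK4 like ABHD16B (0.85), MYT1L (0.84) and DLGAP4 (0.84). PPP1R15A and EIF2S1 correlated at 0.69 over 17 groups and at 0.28 over 16.

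**Figure D4:**
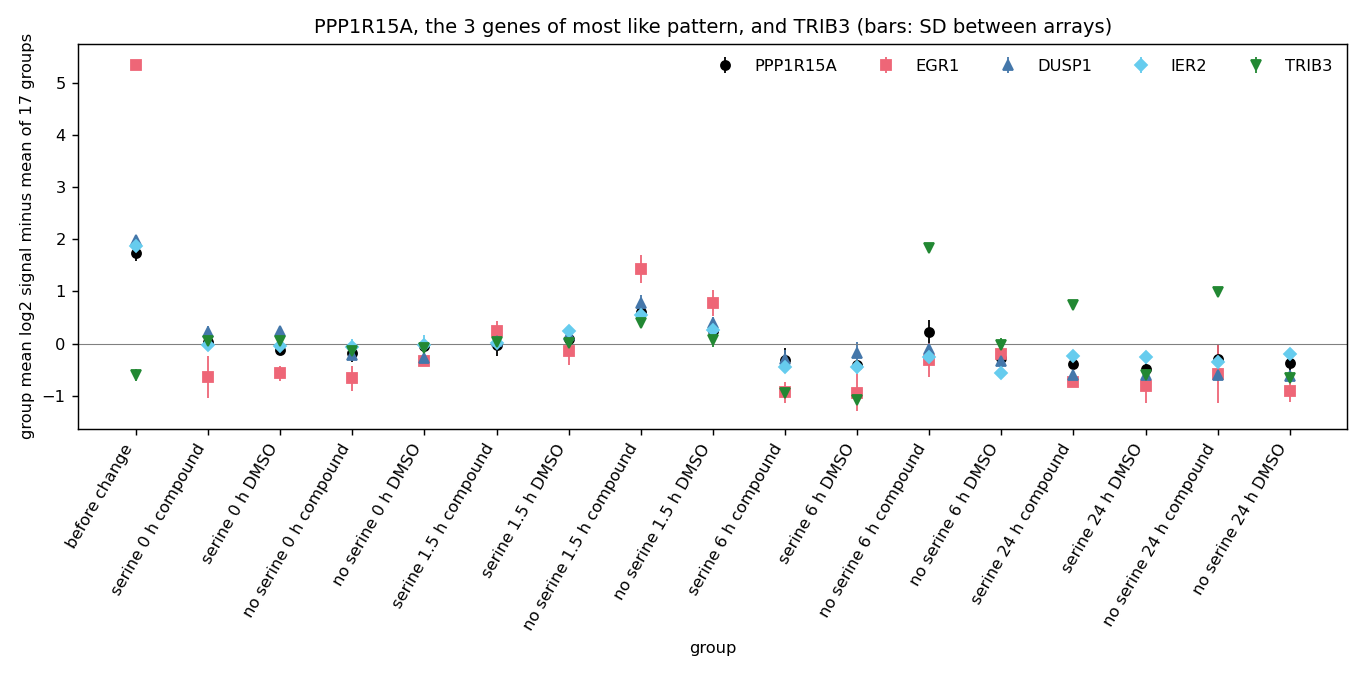
Mean log2 signal of PPP1R15A, EGR1, DUSP1, IER2 and TRIB3 in each of the 17 groups, each gene minus its mean over the groups; lines are the SD between arrays. The first 4 genes are highest before the change of medium, while TRIB3 is highest without serine under compound 16 at 6 h (11.92).

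Genes of the pathway were counted in lists beside the members. Of 18 amino acid response genes, which rise when eIF2alpha is phosphorylated, 17 rose and 0 fell without serine under the compound at 6 h, with a median difference of 0.88. The median over all genes was -0.01, and 2.72% of genes were called. TRIB3 rose by 1.85, CEBPG by 0.90 and ASNS by 0.88. At 24 h 18 rose without serine (median 1.06), where 7.06% of genes were called, and 15 with serine (median 0.85), where 1.37% were. At 1.5 h without serine, where 0.0822% of all genes were called, 3 rose: DDIT4 by 0.47, DDIT3 by 1.19 and ATF3 by 0.67. With serine at 1.5 and 6 h 0 of 18 were called, as were 0 of all 18239 genes.

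Of the 9 other eIF2 and eIF2B genes, 1, 1 and 2 were called higher without serine at 1.5, 6 and 24 h. With serine 1 was, at 24 h. The shares of all genes called there were 0.0822, 2.72, 7.06 and 1.37%. The list medians were 0.02, -0.03, 0.05 and 0.0033. EIF2S2, the beta subunit, rose without serine by 0.27 at 6 h and 0.46 at 24 h, and with serine by 0.29 at 24 h. EIF2S3, the gamma subunit, rose by 0.25 at 24 h without serine, and EIF5, the GTPase activator, by 0.30 at 1.5 h. Of 9 regulators of the kinases, DELE1, which carries mitochondrial stress to EIF2AK1, rose by 0.46 and DNAJC3, an inhibitor of EIF2AK2 and EIF2AK3, by 0.28, both at 24 h without serine, so 2 of 9 stand beside 7.06% of all genes. None of the 3 catalytic subunits of protein phosphatase 1 was called under the compound, where at most 7.06% of all genes were called.

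At 24 h without serine, 542 of 18239 genes rose and 745 fell. Of 14 genes of the other arms of the unfolded protein response, 4 rose and 2 fell there, with HERPUD1 up by 0.75, DNAJB9 up by 0.53 and CALR, which fell by 0.62 (median -0.02). Of 12 cytosolic heat shock genes 9 fell at 6 h without serine (median -0.33), HSPA1B by 0.75, where 2.72% of all genes were called. At 24 h without serine 2 of the 12 rose and 1 fell (median -0.0038). With serine 2 fell (median -0.12), where 1.37% of all genes were called. Of 14 interferon-stimulated genes 3 fell at 24 h without serine, OAS1 by 1.10, OAS3 by 0.62 and IFIT1 by 0.59. Of 16 immediate early genes, all 16 fell at the change of medium in each medium (medians -1.73 and -1.79). In either direction 21.7 and 28.6% of all genes were called there. Under the compound at 1.5 h, 11 of the 16 were higher and 0 lower without than with serine (median 0.47). There 3.33% of all genes were called in either direction.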

How the data were processed

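The authors deposited log2 probe set signals of 50 arrays; the submitters' processing notes name RMA and limma, with no version given in the sources used here. RMA aligns arrays to each other, which removes shifts shared by all genes. Of 49386 probe sets, 45259 name 1 gene symbol; those with several (1327) or none (2707) and 93 controls were left out. Values were used as deposited. All tests came from a single fit in limma 3.58.1 (R 4.3.3) with a mean for each of the 17 groups, with eBayes (33 residual and 3.7 prior degrees of freedom) and Benjamini-Hochberg adjustment over 18239 genes per comparison; the code was tested on simulated data. Named beyond the members are, per list, up to 3 called genes of smallest p, and per member the 3 genes of most like group means. Members and lists were chosen with earlier results of these data known; comparisons at 1.5 h against 0 h, differences between media over time, and the cyclic AMP and CArG motifs and wider motif window were added after values were seen. Precision is limited by the number of arrays. Whether replicates were separate cultures is not stated in the labels, so p-values reflect only the spread between arrays, possibly technical. In such bulk RNA, fewer cells and less RNA per cell cannot be told apart. Alternatives tried were quantile normalization, median centring, the mean of all probe sets, leaving out dim genes, array weights, only the arrays compared, and leaving out each array.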

Additional observations from a re-analysis of the deposited data

Results flagged for a closer look

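The change of EIF2S1 from 6 to 24 h under compound 16 differed between media by a test of the difference itself: 0.34 ± 0.09 (limma, adjusted p = 0.0224), from a fall of 0.43 with serine to -0.09 without it. The other 4 probe sets gave 0.10 to 0.18, in the same direction, and 0 of them was called.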

How the results depend on the processing

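Of 231 results (7 genes in 33 comparisons) 26 were called, and 10 of these stayed called in the same direction under every alternative run on the gene's value (single other probe sets, often not called, stand in the report): the falls of PPP1R15A, PPP1R15B and EIF2S1 at the change of medium in both media, the changes of PPP1R15B without serine in DMSO from 0 to 1.5 h, 0 to 6 h and 6 to 24 h, and the fall of EIF2S1 from 6 to 24 h with serine under compound 16. PPP1R15A has only 1 probe set, so the mean of all probe sets could not change its differences and is no check of them. With the mean of all probe sets, EIF2AK2 at the change of medium with serine turned to -0.24 (adjusted p = 0.00392) and EIF2S1 from 0 to 6 h in DMSO without serine to 0.15 (0.0366). Calls lost there were PPP1R15B between media under the compound at 6 h (0.18), EIF2AK1 from 6 to 24 h (0.12 and 0.10 with serine in DMSO and under the compound, 0.11 without serine) and EIF2S1 over time between media (0.18). Quantile normalization ended the fall of PPP1R15A from 6 to 24 h (-0.42, adjusted p = 0.0507), median centring those of EIF2S1 in DMSO (-0.17 and -0.16), and array weights EIF2AK1 with serine under the compound (0.13). Median centring moved the median of all genes by -0.08 to 0.15, quantile normalization by -0.01 to 0.03. Fits to only the arrays compared, which have fewer residual degrees of freedom, ended 16 calls at unmoved differences: PPP1R15A 0.50, 0.64, 0.54 and -0.52 (compound at 6 h, between media at 1.5 and 6 h, 6 to 24 h); PPP1R15B 0.27, 0.32 and 0.43 (compound, between media, 0 to 1.5 h); EIF2AK1 0.20, 0.17 and 0.18; EIF2AK4 0.38 and 0.31; EIF2AK2 0.25; EIF2S1 -0.23, -0.22 and 0.34. The cause of the other losses was not tested. Results that were not called became called too: 7 with the mean of all probe sets, 7 with median centring, 3 with dim genes left out, 1 each with array weights and quantile normalization, and 3 with one array left out. EIF2AK3 was called from 0 to 6 h and, lower, from 6 to 24 h (-0.23, mean), both in DMSO without serine. EIF2S1 was called between media under the compound at 6 h (-0.19, array weights) and 24 h (0.23, centring, and 0.19, dim genes out). With serine in DMSO, EIF2S1 was called from 0 to 6 h (0.18 and 0.26 by centring and mean) and to 1.5 h (0.23 and 0.20). From 6 to 24 h without serine under the compound, EIF2AK1 was called by the mean (0.18). The rest were results of EIF2AK1, EIF2AK2, EIF2AK4 and PPP1R15B.

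Leaving out one array ended 14 calls at least once. The differences then ran as follows. From 6 to 24 h, EIF2AK1 gave 0.15 to 0.23 (serine, DMSO), 0.16 to 0.22 (no serine, DMSO) and 0.10 to 0.21 (serine, compound). EIF2AK2 gave 0.22 to 0.27, and EIF2AK4 0.31 to 0.44 (DMSO) and 0.20 to 0.39 (compound). EIF2S1 gave -0.26 to -0.19 (serine, DMSO), -0.24 to -0.20 (no serine, DMSO), and 0.29 to 0.41 between media, lost without array 57, 59, 63, 65, 93, 94 or 100. PPP1R15A gave -0.65 to -0.37. The compound effect of PPP1R15A at 6 h gave 0.43 to 0.63, and its difference between media under the compound at 6 h 0.41 to 0.67. PPP1R15B gave 0.37 to 0.50 from 0 to 1.5 h with serine and 0.22 to 0.32 under the compound at 24 h. The replicate numbers run through the series and no groups share them. No paired analysis was possible because the groups compared share no replicate numbers. Ranked over the 50 arrays in place of 17 group means, the 3 genes most like PPP1R15A were again IER2 (0.92), DUSP1 (0.92) and EGR1 (0.91); for the other members the lists changed in part or whole.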
